A study of Mus musculus with 8 samples.

Results

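The genes described here are 8 genes of tendon and of the myotendinous junction: Scx, Mkx, Tnmd, Comp, Thbs4, Col12a1, Col14a1 and Col22a1. They were taken by name from the 23008 mouse genes of the deposited table, with earlier results of these data known. All 8 had an entry and a mean value of at least 10 normalised reads. RNA was sequenced from 8 samples of gastrocnemius, the calf muscle that ends in the Achilles tendon. The mice were wild-type C57BL/6J and had received, by tail vein, AAV9 carrying a construct called GNDM, an epigenome editor built to activate a gene. The guide delivered with it was m31, aimed at Lama1, in 4 samples and a control guide without a target in the other 4, so that the editor and the virus are common to both groups and no untreated muscle was included. Tissue was collected 11 weeks after injection. One label gives the age at injection as 7 weeks and another as 7 to 12 weeks. The sources used here do not give the cell type that expresses the construct, the sex of the mice or how muscle was cut away from tendon. They also do not say whether each library came from its own animal, so p-values rest on the spread among these libraries, part of which may be technical.

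Tendon is built by tenocytes, fibroblast-like cells that lay down parallel fibres of collagen I. The transcription factors scleraxis (Scx) and mohawk (Mkx) direct this programme, and tenomodulin (Tnmd), a membrane protein, is its most used late marker. COMP and thrombospondin-4 are pentameric proteins that bind collagen in tendon and cartilage, and collagens XII and XIV sit on the surface of collagen fibrils and link them to the surrounding matrix. Collagen XXII differs from these in its place: it lies at the tip of the muscle fibre, where the fibre's membrane meets the tendon, and is made by muscle nuclei at that tip.

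Of the 8 genes, 2 had an entry in the RefSeq promoter table (GRCm38.p6), Thbs4 and Tnmd, which belong to the 6 genes that varied most together between libraries. Their sequences of 250 bases before the transcription start are shown 5′ to 3′ on the strand of the gene because scleraxis, like other basic helix-loop-helix factors, binds E-boxes. Capitals mark matches to the E-box CANNTG, which reads the same on both strands.
Thbs4: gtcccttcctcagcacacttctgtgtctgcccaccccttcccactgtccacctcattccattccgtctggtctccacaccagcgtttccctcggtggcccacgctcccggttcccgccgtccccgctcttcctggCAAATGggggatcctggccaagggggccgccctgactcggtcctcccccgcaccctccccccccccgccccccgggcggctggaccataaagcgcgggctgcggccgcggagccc
Tnmd: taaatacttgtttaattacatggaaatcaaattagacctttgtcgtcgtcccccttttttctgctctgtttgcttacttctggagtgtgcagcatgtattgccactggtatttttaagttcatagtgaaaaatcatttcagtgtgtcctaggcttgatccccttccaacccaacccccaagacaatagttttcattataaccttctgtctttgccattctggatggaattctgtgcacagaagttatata
The Thbs4 window, chr13:92794819-92795068 on the minus strand, held 1 E-box, CAAATG, whose first base lies 115 bases before the start. The Tnmd window, chrX:133850758-133851007 on the plus strand, held none. Its last 28 bases lie inside Tnmd as GENCODE annotates it, because RefSeq places the start further downstream. An E-box was found in 66.2% of all 32851 windows of this length in the table, so that a match or its lack in 1 window is a description only. The short SMAD element CAGACA, searched on both strands because TGF-beta acts on tenocytes, had 1 match in the Thbs4 window and 0 in the Tnmd window, and was found in 17.1% of all windows.

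Values are read counts that the authors divided by 1 size factor per library, called normalised reads below. Whole reads could be recovered from them, 25157486 to 39210248 in mouse genes per library, so that the least covered of the 8 genes, Mkx, still rested on 31 to 134 reads per library. Lama1, the target, had 209, 295, 273 and 86.5 normalised reads in m31 replicates 1 to 4 and at most 4.18 in the control libraries. The construct entry GNDM had 12365, 24487, 15418 and 6157 in m31 replicates 1 to 4. In control replicates 1 to 4 GNDM had 11969, 13775, 37989 and 9802. Thus m31 replicate 4 was the lowest m31 library for Lama1 and the lowest of the 8 for GNDM. Control replicate 3 was the highest for GNDM. Whether the 8 genes follow these levels was not tested. Skeletal muscle fibre markers, all 9 of 9 listed, summed to 4042600 to 4634400 normalised reads in m31 libraries and to 3776000 to 5161700 in control libraries. Of 11 cartilage and bone markers, 6 had an entry, and these summed to 135 to 329 and 153 to 218 normalised reads. In earlier results on these data 2 libraries stood apart, m31 replicate 4 and control replicate 3, so the differences of the 8 genes are also given without m31 replicate 4 and without both.

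Of the 8 genes, 6 varied together between libraries and 2 hardly varied. Comp, Thbs4, Col12a1, Col14a1, Tnmd and Mkx ranged from 3.63-fold (Mkx) to 7.27-fold (Col14a1) between the lowest and the highest of the 8 libraries. Scx ranged 1.37-fold and Col22a1 1.25-fold, against a median of 1.57-fold over all 15960 genes tested. Of these genes 12.8% ranged at most as far as Col22a1, and 1.11% at least as far as Col14a1. Library m31 replicate 4 was the highest of the 8 libraries for 7 of the 8 genes, Col22a1 being the exception. How many of all genes tested were highest in that library was not counted. This count and those given for other lists below are therefore descriptions only. The lowest library was control replicate 2 or 4 for 6 of the 8.

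**Figure D1:**
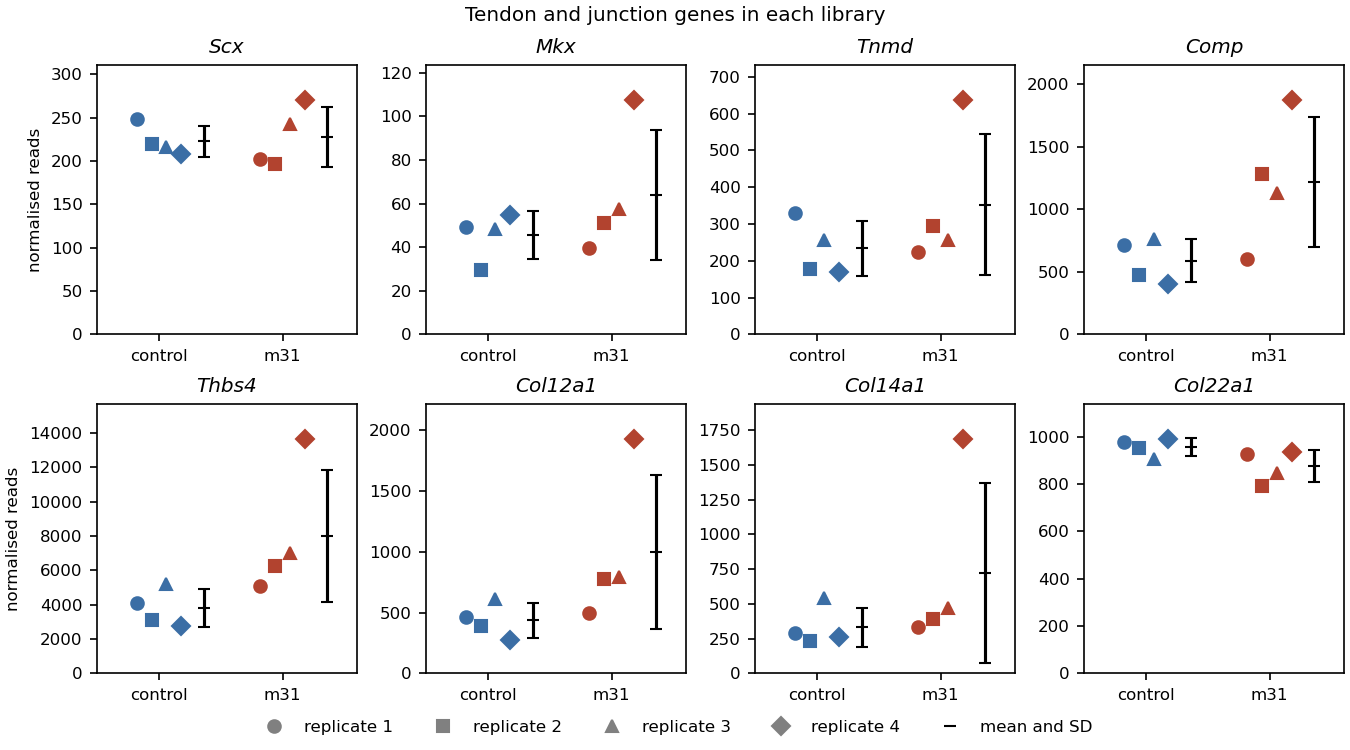
Normalised reads (vertical axis, from 0, scaled for each gene) of the 8 genes in the 4 control libraries (blue) and the 4 m31 libraries (red); symbols mark the replicate number and the bar the mean and SD of the group. The red diamond, m31 replicate 4, is the highest point for every gene but Col22a1, and the groups overlap in every panel.

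No gene of the 8 passed the test for a difference between guides. By limma with Benjamini-Hochberg adjustment over 15960 genes, 0 of 8 had an adjusted p under 0.05, where 1 of all genes tested, 0.00627%, did, and that gene was Lama1. By edgeR and by DESeq2 on the recovered reads the count was also 0 of 8. Without adjustment, 3 of the 8 had p under 0.05 by limma, all with higher values under m31: Comp, Thbs4 and Col12a1. Over all genes tested that number was 1083, of which 600 were higher. By edgeR 4 and by DESeq2 3 of the 8 were under that unadjusted value. For all 8 genes the lowest and highest values of the 2 groups overlapped, where the groups were apart for 3.85% of genes tested. The median log2 difference, m31 minus control, of the 8 was 0.69 and of all genes tested 0.01. Without m31 replicate 4 these medians were 0.26 and 0.00, and without control replicate 3 as well 0.42 and 0.00.

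Scx encodes scleraxis, which marks tendon progenitors and tenocytes. In m31 replicates 1 to 4 it had 202, 197, 243 and 270.0 normalised reads, and in control replicates 1 to 4 249, 219, 216 and 208. The libraries interleave, with 2 m31 libraries at the bottom and 2 of the 3 highest also from m31. The group means were 228 ± 34.8 and 223 ± 17.8 (SD, n = 4 each), a log2 difference of 0.02 ± 0.13 (SE; 95% interval -0.26 to 0.31; limma adjusted p = 0.978). The estimate changed sign to -0.062 without m31 replicate 4 and to -0.076 without control replicate 3 as well, and it was also below 0 when values were quantile normalised or recentred on library medians. In the GENCODE annotation of GRCm38, Scx (ENSMUSG00000034161) lies on the plus strand of chromosome 15, 76457452 to 76459458, inside Bop1, a ribosome assembly gene on the other strand that spans 76452989 to 76477277. The exons of both genes share 0 bases, so Scx lies in intron sequence of Bop1, and without a known strand setting reads of unspliced Bop1 cannot be told from reads of Scx. Bop1 had 954 to 1051 normalised reads in m31 libraries and 950.0 to 1091 in control libraries, and like Scx did not stand apart in m31 replicate 4, at 954. What part of the Scx reads came from Bop1 was not tested.

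Mkx, the homeobox factor that keeps tendon collagen genes active, was the least abundant of the 8. It had 39.9, 51.2, 57.3 and 107 normalised reads in m31 replicates 1 to 4 and 49.4, 29.6, 48.3 and 54.6 in control replicates 1 to 4. Library m31 replicate 4 was 2.10 times the median of the other m31 libraries, which at 39.9 to 57.3 overlapped with the control libraries. The log2 difference was 0.42 ± 0.30 (SE; 95% interval -0.25 to 1.09; limma adjusted p = 0.836), 0.14 without m31 replicate 4 and 0.18 without control replicate 3 as well. Mkx (ENSMUSG00000061013) lies on the minus strand of chromosome 18, 6934518 to 7004780, and shares 201 of its 4095 exon bases with a second annotated transcript on the same strand, AC148004.2, so its counts may be divided with that entry.

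Tnmd, the tenomodulin gene, had 224, 294, 258 and 636 normalised reads in m31 replicates 1 to 4. In control replicates 1 to 4 it had 331, 179, 257 and 169. Of the m31 libraries 3 thus lie inside the range of the control libraries, and control replicate 1 is above these 3. The other, m31 replicate 4, was 2.47 times the median of the other m31 libraries. The log2 difference was 0.51 ± 0.31 (SE; 95% interval -0.18 to 1.21; limma adjusted p = 0.803), 0.19 without that library and 0.25 without control replicate 3 as well. Tnmd (ENSMUSG00000031250) lies on the plus strand of chromosome X, 133850980 to 133865577, with no overlapping gene.

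Thbs4 and Comp, which encode thrombospondin-4 and cartilage oligomeric matrix protein, were higher in most m31 libraries. Thbs4 had 5107, 6261, 7028 and 13646 normalised reads in m31 replicates 1 to 4 and 4122, 3137, 5223 and 2788 in control replicates 1 to 4. Only m31 replicate 1 lay under a control library, control replicate 3, and m31 replicate 4 was 2.18 times the median of the other m31 libraries. Group means were 8011 ± 3839 and 3817 ± 1094 (SD, n = 4 each). The log2 difference was 1.01 ± 0.28 (SE; 95% interval 0.39 to 1.63), which did not pass the test over all genes (limma adjusted p = 0.647). It was 0.71 without m31 replicate 4 (adjusted p = 0.670) and 0.88 without control replicate 3 as well (adjusted p = 0.146). Thbs4 (ENSMUSG00000021702) lies on the minus strand of chromosome 13, 92751590 to 92794818, with no overlapping gene.

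Comp had 605, 1279, 1128 and 1869 normalised reads in m31 replicates 1 to 4 and 718, 477, 760 and 406 in control replicates 1 to 4. Here m31 replicate 1 was among the control libraries, while replicates 2, 3 and 4 were each above every control. Of the 6 genes that varied, Comp rested least on m31 replicate 4, which was 1.66 times the median of the other m31 libraries. The log2 difference was 0.99 ± 0.31 (SE; 95% interval 0.30 to 1.67; limma adjusted p = 0.647), 0.74 without m31 replicate 4 and 0.88 without control replicate 3 as well. Comp (ENSMUSG00000031849) lies on the plus strand of chromosome 8, 70373558 to 70382066, with no overlapping gene.

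The genes of the fibril-surface collagens differed in their step in m31 replicate 4. Against the median of the other m31 libraries Col14a1 stood at 4.28 times and Col12a1 at 2.49 times, the latter close to Tnmd at 2.47 times. Col12a1 had 500.5, 775, 794 and 1927 normalised reads in m31 replicates 1 to 4 and 460.3, 389, 615 and 276 in control replicates 1 to 4. As for Thbs4 and Comp, m31 replicates 2, 3 and 4 were above all control libraries and replicate 1 was not. The log2 difference was 1.07 ± 0.36 (SE; 95% interval 0.28 to 1.86; limma adjusted p = 0.669), 0.69 without m31 replicate 4 and 0.88 without control replicate 3 as well. Col12a1 (ENSMUSG00000032332) lies on the minus strand of chromosome 9, 79598991 to 79718831, and shares 0 exon bases with the antisense gene annotated inside it.

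Col14a1, which is made by many fibroblasts besides tenocytes, had 334, 394, 472 and 1685 normalised reads in m31 replicates 1 to 4. In control replicates 1 to 4 it had 294, 232, 539 and 263. Control replicate 3 was above 3 of the m31 libraries, and m31 replicate 4 was 4.28 times the median of the others, the steepest step of the 8 genes. The log2 difference of 0.86 ± 0.45 (SE; 95% interval -0.14 to 1.85; limma adjusted p = 0.772) was 0.34 without m31 replicate 4 and 0.60 without control replicate 3 as well. Col14a1 (ENSMUSG00000022371) lies on the plus strand of chromosome 15, 55307750 to 55520803, and shares 0 exon bases with the 3 genes annotated inside it.

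Col22a1, the collagen of the fibre tip, did not follow the tendon collagens. It had 926, 791, 849 and 935 normalised reads in m31 replicates 1 to 4 and 977, 953, 907 and 990.1 in control replicates 1 to 4. In m31 replicate 4, where Col14a1 was 4.28 times and Col12a1 2.49 times the median of the other m31 libraries, Col22a1 was 1.10 times that median. Group means were 875 ± 68.2 and 957 ± 36.5 (SD, n = 4 each), with a log2 difference of -0.13 ± 0.08 (SE; 95% interval -0.32 to 0.05; limma adjusted p = 0.816). It was -0.16 without m31 replicate 4 and -0.19 without control replicate 3 as well. The upper bound of its interval, 0.05, lies under the lower bounds of Thbs4, Comp and Col12a1, and the difference between these genes was not tested. Col22a1 (ENSMUSG00000079022) lies on the minus strand of chromosome 15, 71795795 to 72034227, and shares 16 of its 9203 exon bases with an antisense gene.

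Taken gene by gene and without adjustment, an exact permutation test (two-sided, 70 arrangements of the libraries) gave p = 0.0571 for Thbs4 and for Col12a1, 0.0857 for Comp, 0.114 for Col22a1, 0.200 for Col14a1, 0.257 for Tnmd, 0.343 for Mkx and 0.886 for Scx. The smallest p that this design allows is 0.0286.

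**Figure D2:**
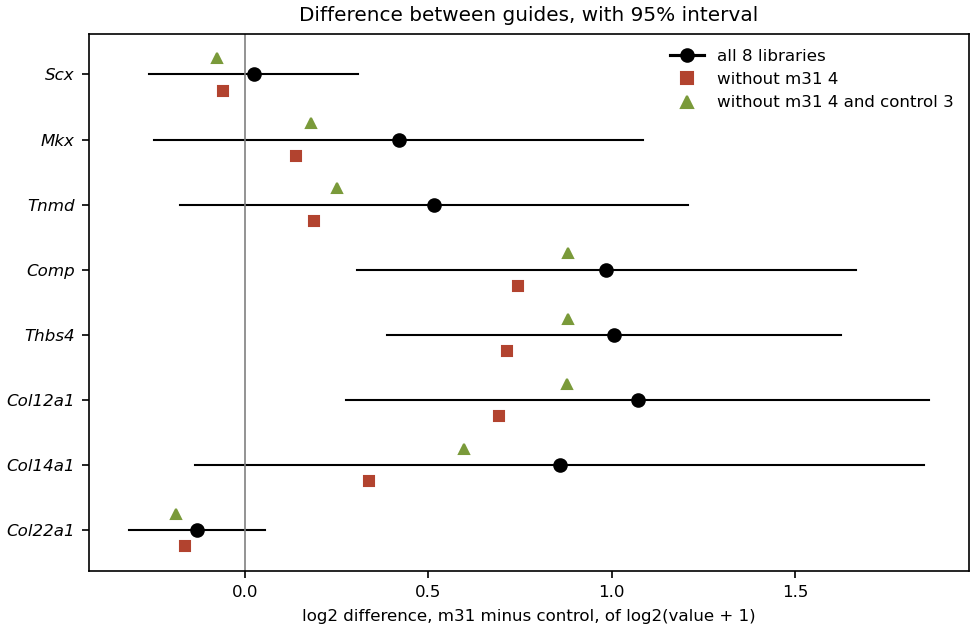
Difference between guides (horizontal axis, m31 minus control on the log2(value + 1) scale) of the 8 genes with all 8 libraries (black dot, line for the 95% interval), without m31 replicate 4 (red square) and without m31 replicate 4 and control replicate 3 (green triangle). Thbs4, Comp and Col12a1 lie between 0.69 and 1.07 in each of the 3 settings, Tnmd, Mkx and Col14a1 move most of the way towards 0 without m31 replicate 4, and Col22a1 stays below 0.

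Divided by exon length, the order of levels was led by Thbs4. It had 2436 ± 1167 normalised reads per kilobase of exon with m31 and 1161 ± 333 with the control guide (SD, n = 4 each). Comp followed at 411 ± 175 and 199 ± 58.9 per kilobase, and Tnmd at 261 ± 141 and 173 ± 55.7, neighbours whose groups overlap within 1 SD. Scx stood at 114 ± 17.3 and 111 ± 8.86 and Col22a1 at 95.1 ± 7.42 and 104 ± 3.97 per kilobase. Col14a1 lay above Col22a1 on average with m31, at 103 ± 92.0, and below it with the control guide, at 47.3 ± 20.1. Col12a1 had 65.6 ± 41.6 and 28.6 ± 9.32 per kilobase and Mkx, the lowest, 15.6 ± 7.29 and 11.1 ± 2.68. In these muscle samples the mean level per kilobase of Col22a1 was thus above that of Col12a1 with both guides.

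Across the 8 libraries the 6 varying genes moved together. Over their 15 pairs Pearson's r of the log2 values ran from 0.74 (Comp with Mkx) to 0.99 (Thbs4 with Col12a1). These values describe 8 libraries, among them 1 far from the rest, and genes measured in the same libraries share its deviation. Without m31 replicate 4 the range was 0.31 to 0.97, the lowest pair then being Mkx with Col12a1, and Mkx reached at most 0.53, with Col14a1. Scx, which ranged little, had r of 0.51 (Comp) to 0.71 (Tnmd) with the 6 over 8 libraries. For Scx this was 0.05 (Col14a1) to 0.37 (Tnmd) without m31 replicate 4. Among Comp, Thbs4 and Col12a1 r was 0.92 to 0.97 without that library. Col22a1 went the other way from them in part, with r of -0.59 with Comp, -0.43 with Thbs4 and -0.43 with Col12a1 over all 8 libraries. Over the 7 libraries without m31 replicate 4 these values were -0.90, -0.83 and -0.88, and Col22a1 ranged little in all of them. With Tnmd, Mkx and Col14a1 its r over 8 libraries was -0.15, -0.07 and -0.18.

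Genes whose pattern over the 8 libraries was most like the mean of the 8 genes were named by Pearson's r. The closest were Pcolce, which speeds the maturation of fibrillar procollagen (r = 0.99, and 0.95 without the libraries farthest from the median, m31 replicate 4 and control replicate 2), and Col1a1, the main collagen of tendon and of muscle connective tissue (0.99 and 0.96). Cyp4f16, March1, Bicc1, Olfml3, Antxr1 and Fzd1 followed, with r of 0.98 each. Among the genes most similar to each single gene were, for Comp, Serpinf1 and Fbln1 (both 0.99), for Thbs4 March1 (0.99), for Col12a1 Fzd1 (0.99), for Col14a1 Fn1, the fibronectin gene, and Antxr1 (both 0.99), and for Tnmd Csgalnact1 and Olfml3 (0.99 and 0.97). Mkx was nearest to Btg1 and Thsd7a (0.96 and 0.95), and Gm20342 was among the genes nearest to Scx (0.96). Col22a1 shared none of these neighbours and was nearest to Ola1 and Pkig (0.98 and 0.96).

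Other genes of tenocytes and tendon matrix shared the direction of Thbs4 and Comp. Of 30 listed, 29 were tested, 28 had higher estimates with m31, 1 (Tppp3) had a lower one and 0 passed over all genes, against 51.3% of all genes tested with a higher estimate. Their median log2 difference was 0.62, 0.29 without m31 replicate 4 and 0.43 without control replicate 3 as well. In 26 of the 30, as in 7 of the 8 genes above, m31 replicate 4 was the highest library. Several members of this list, such as Dcn and Lum, are also expressed by the fibroblasts of muscle.

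Within this list the genes differed in how far they rested on m31 replicate 4, as Comp and Col14a1 did. Prg4 (lubricin, which lets tendons glide) had 928, 1515, 1715 and 2012 normalised reads in m31 replicates 1 to 4 and 680.5, 462, 1085 and 439.7 in control replicates 1 to 4, a log2 difference of 1.25 ± 0.30 (SE; limma adjusted p = 0.627), and 1.11 without m31 replicate 4. Fmod (fibromodulin, which sets the width of collagen fibrils) had 5694, 11317, 10744 and 12082 in m31 and 7102, 4938, 8042 and 3625 in control replicates 1 to 4, a difference of 0.76 ± 0.28 (SE; limma adjusted p = 0.698). Like Comp, both were higher in m31 replicates 2, 3 and 4 than in any control library. Igfbp6, a binding protein of insulin-like growth factors, was apart between groups, at 1728 to 2046 against 1226 to 1648 (difference 0.37 ± 0.11, SE; limma adjusted p = 0.647). Chad and Cthrc1, picked out after their values were seen, mark the ends of the range. Chad (chondroadherin) had 492, 1453, 1467 and 1236 in m31 replicates 1 to 4 and so was not highest in replicate 4, whereas Cthrc1, a gene of activated fibroblasts, had 6.65, 13.5, 8.19 and 365 and in the control libraries 5.33 to 15.7. Cilp, also picked out after its values were seen, passed the test once m31 replicate 4 and control replicate 3 were both left out (log2 difference 1.19, limma adjusted p = 0.00545) and did not with all 8 libraries (0.97, adjusted p = 0.720), and no gene of the 8 passed in either case. Control replicate 3 had 3475 normalised reads of Cilp, 3.37 times the median of the other control libraries, and m31 replicates 1 to 3 had 2051 to 2555. The pass thus depends on which libraries were dropped. With only m31 replicate 4 or only control replicate 3 left out, Cilp did not pass.

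Signals and factors known to act on tenocytes were listed separately. Of 21 listed, 20 were tested and 0 passed, 15 with higher and 5 with lower estimates and a median log2 difference of 0.08 (-0.01 without m31 replicate 4). Tgfb1, a ligand that induces scleraxis, had 197 to 385 normalised reads in m31 and 189 to 298 in control libraries (difference 0.35 ± 0.20, SE; limma adjusted p = 0.791; 0.20 without m31 replicate 4). The hedgehog target Gli1 had a difference of 0.47 ± 0.19 and Bmp4 of 0.24 ± 0.17 (SE; limma adjusted p = 0.720 and 0.831).

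Genes of the muscle fibre's side of the junction had no common direction. Of 20 listed, 19 were tested and 0 passed, with 10 higher and 9 lower estimates and a median log2 difference of 0.00. Of the 20, 1 was highest in m31 replicate 4 and 8 were highest in control replicate 3. Over all 15960 genes tested, 483 had an unadjusted limma p under 0.05 and a lower estimate with m31. The 4 genes of this list with such a p were all lower with m31. Among them Fras1, an extracellular matrix protein gene, had 74.1, 44.0, 35.5 and 63.3 normalised reads in m31 replicates 1 to 4 and 105, 88.7, 97.8 and 95.9 in control replicates 1 to 4, with no overlap (difference -0.88 ± 0.22, SE; limma adjusted p = 0.627). Tigd4, a gene reported in nuclei at the junction, had 271 to 299.7 in m31 and 301 to 389 in control libraries (-0.34 ± 0.11, SE; limma adjusted p = 0.647). Tln2, which encodes the talin that anchors integrins in muscle, had 3468 to 5374 and 5358 to 7407 (-0.40 ± 0.15, SE; limma adjusted p = 0.698), a difference of -0.28 without m31 replicate 4 and of -0.17 without control replicate 3 as well.

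The 8 genes were set beside lists for muscle repair, connective tissue and other cells, library by library. To set lists side by side, the log2 values of a list's tested genes were centred on the 8 libraries and averaged within each library. The 8 genes scored -0.23, 0.11, 0.20 and 1.11 in m31 replicates 1 to 4 and -0.12, -0.54, 0.01 and -0.54 in control replicates 1 to 4. The other tendon genes scored -0.38, 0.30, 0.20 and 1.05 and then -0.15, -0.42, 0.14 and -0.73. Both are highest in m31 replicate 4, next in m31 replicates 2 and 3, and lowest in control replicates 2 and 4. The muscle repair list scored -0.18, -0.19, -0.15 and 0.67 in m31 and -0.22, -0.10, 0.58 and -0.42 in control replicates 1 to 4. Like the 8 genes, the repair list was highest in m31 replicate 4, and in both lists control replicate 3 was the highest control library. The difference between the lists was not tested.

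**Figure D3:**
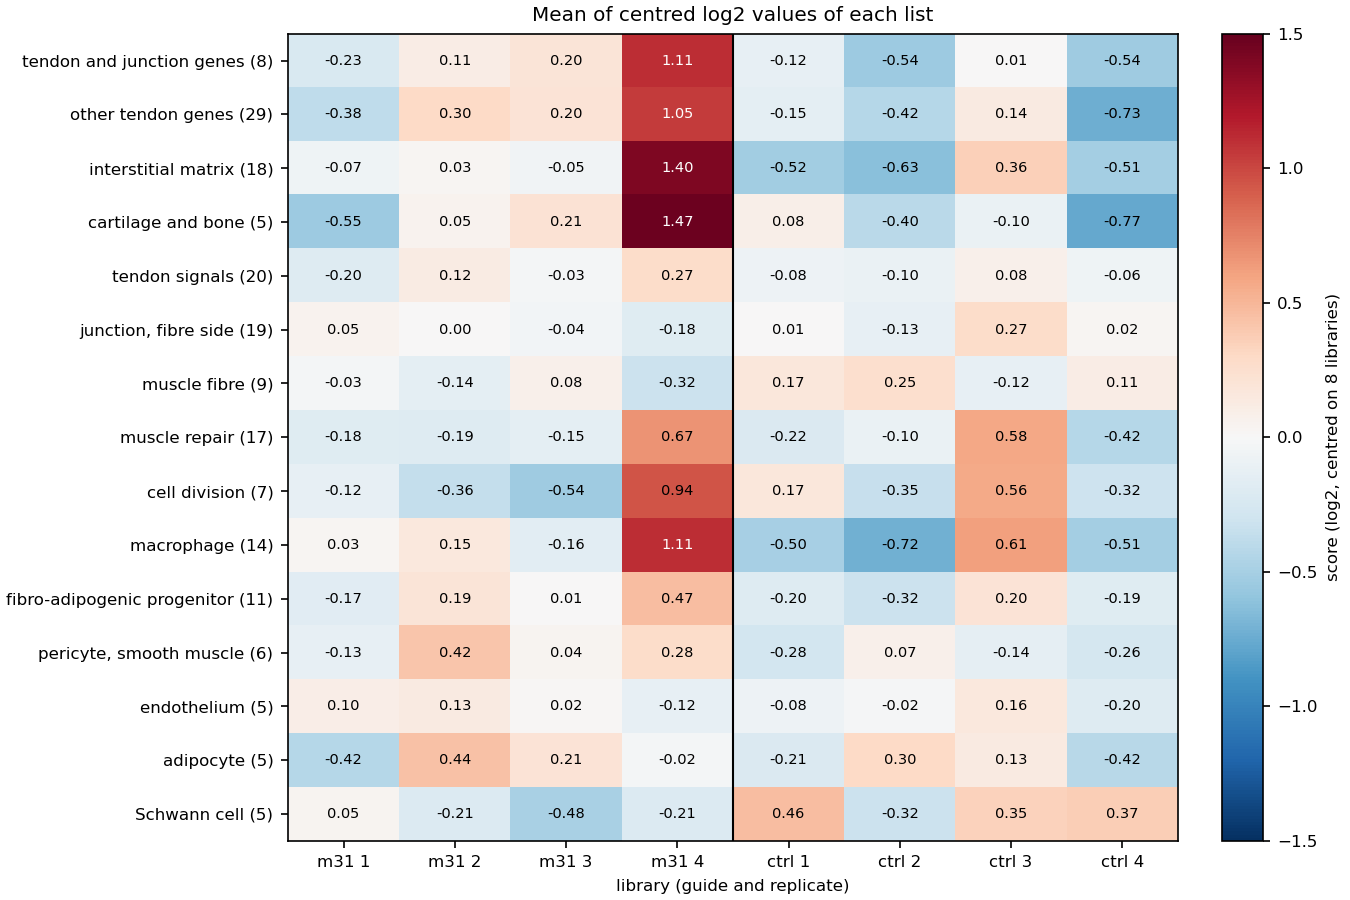
Score of each gene list (rows, number of tested genes in brackets) in each library (columns; the line separates the m31 from the control libraries), in log2 units centred on the 8 libraries; red is high and blue low. Tendon and junction genes reach 1.11 in m31 replicate 4 and 0.01 in control replicate 3, muscle repair genes 0.67 and 0.58, and genes of the junction's fibre side -0.18 and 0.27.

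Of the 18 repair genes, 8 were highest in m31 replicate 4 and 6 in control replicate 3, and 13 were above the median of the other control libraries in control replicate 3. Their steps differed widely, and the genes that follow were chosen with their values in view. Myh3, the embryonic myosin of regenerating fibres, had 118, 70.1, 193 and 344 normalised reads in m31 replicates 1 to 4 and 90.4, 106, 681 and 123 in control replicates 1 to 4. Mymk, which fuses myoblasts, had 84.9 in m31 replicate 4, 40.5 in control replicate 3 and at most 5.70 elsewhere. Chrng, the fetal acetylcholine receptor subunit, had 40.9 and 36.0 in the same libraries and at most 9.10 elsewhere. Mymk and Chrng each rested on 1 read in their lowest library, and such large steps weigh most in the score of the repair list. The other 5 repair genes were below the median of the other control libraries in control replicate 3: Myod1, which commits cells to muscle, was 0.66 times that median, Tnnt2 0.83 times, Des 0.88 times, Cdh15 0.97 times and Myf6 0.98 times. In m31 replicate 4, 15 of the 18 were above the median of the other m31 libraries. Cdh15 (0.82 times), Actc1 (0.94 times) and Des (0.97 times) were below it. Of the 10 cell division genes, 7 were highest in m31 replicate 4, and in control replicate 3 Mki67 was 3.12 times the median of the other control libraries and Cdk1 0.94 times, with Mcm5 at that median. Of the 8 genes in control replicate 3, Tnmd was 1.44 times, Comp 1.59 times, Thbs4 1.66 times, Col12a1 1.58 times and Col14a1 2.06 times the median of the other control libraries, while Mkx stood at 0.98, Scx at 0.98 and Col22a1 at 0.93 times it. In m31 replicate 4 the steps over the other m31 libraries were 2.47 (Tnmd), 1.66 (Comp), 2.18 (Thbs4), 2.49 (Col12a1) and 4.28 times (Col14a1). Acan, the aggrecan gene of cartilage and of compressed tendon, had 107 in m31 replicate 4 and at most 3.37 in each of the other 7, in 1 of which it is listed at 0.

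**Figure D4:**
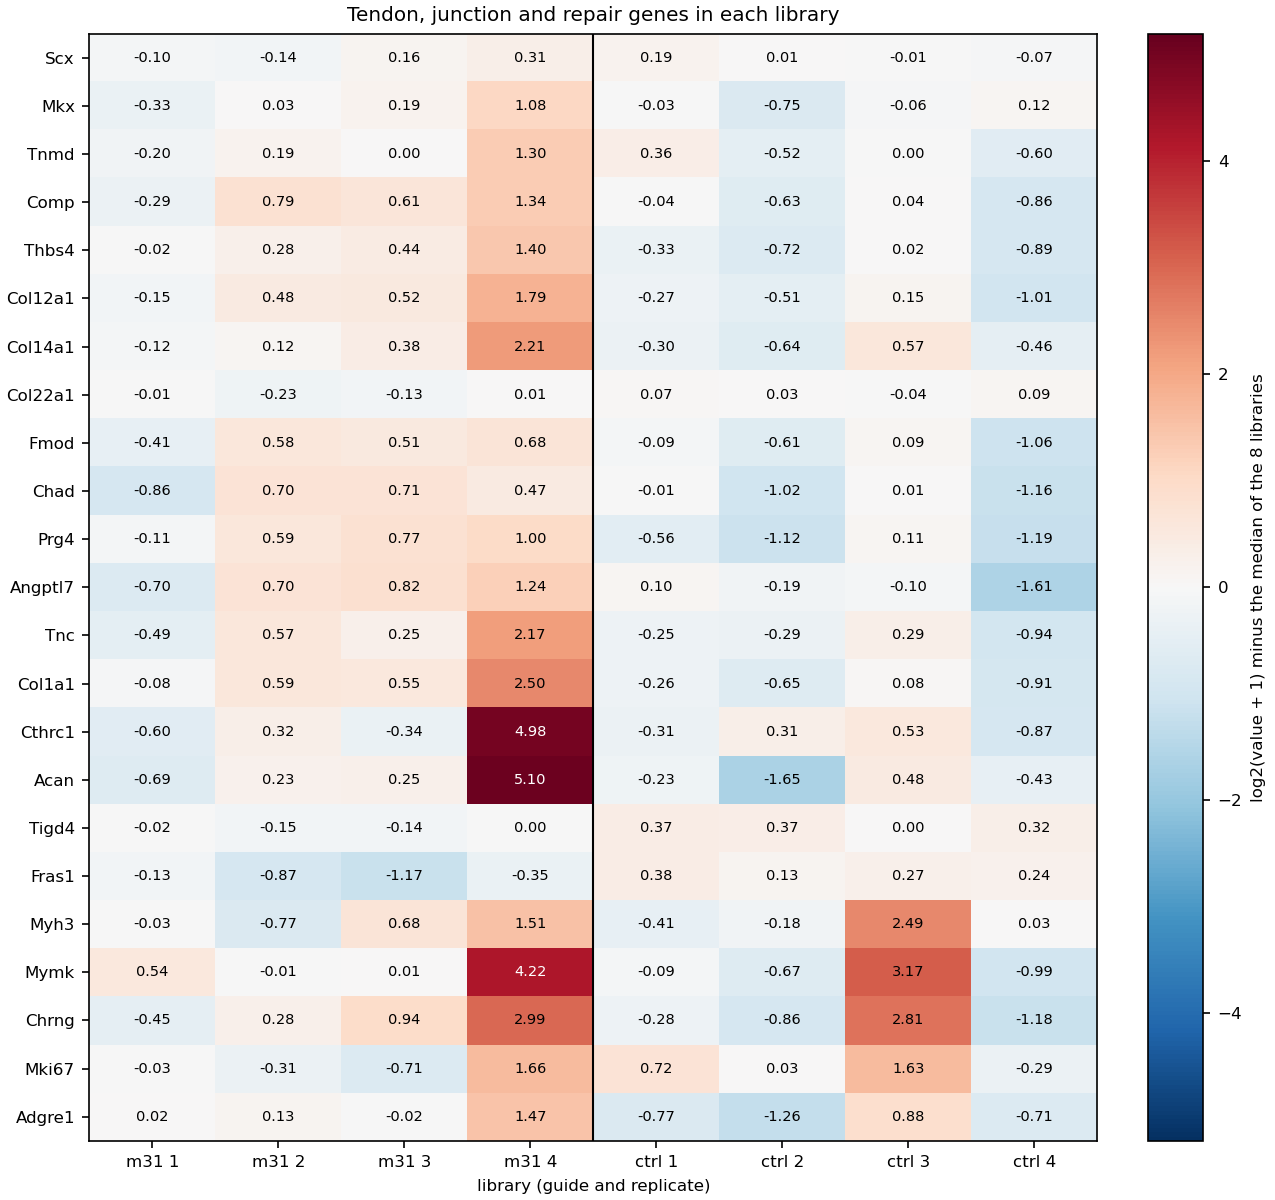
Level of the 8 genes (top rows), other tendon and matrix genes, genes of the junction's fibre side and repair, division and macrophage genes (rows) in each library (columns), as log2(value + 1) minus the median of the 8 libraries. In m31 replicate 4 Col12a1 stands 1.79 and Col14a1 2.21 above the median with Myh3 at 1.51, and in control replicate 3 they stand at 0.15, 0.57 and 2.49.

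Markers of other cells moved with the 8 genes in part. The interstitial matrix list, 17 of 18 higher with m31 and 0 past the test, had a median log2 difference of 0.65 (0.31 without m31 replicate 4) and scored 1.40 in m31 replicate 4 and 0.36 in control replicate 3. Its collagen gene Col1a1 had 9342, 14877, 14442 and 55871 normalised reads in m31 replicates 1 to 4 and 5236 to 10399 in control libraries. The macrophage list, 14 of 14 higher and 0 past the test (median 0.52, and 0.26 without m31 replicate 4), scored 1.11 and 0.61 in these libraries and summed to 4468 to 10744 normalised reads in m31 and 3222 to 7595 in control libraries. Fibro-adipogenic progenitor markers, 10 of 11 higher and 0 past the test (median 0.27, and 0.20 without m31 replicate 4), scored 0.47 and 0.20 and summed to 40092 to 61567 and 37848 to 49796. Cell division genes, 3 of 7 higher and 0 past the test, scored 0.94 and 0.56. Cartilage and bone genes, 3 of 5 higher and 0 past the test, scored 1.47 in m31 replicate 4, the highest score of the 15 lists there, and -0.10 in control replicate 3. That 1.47 leaned on Acan, at 39.5 times the median of the other m31 libraries. Matn3 stood at 4.73, Col2a1 at 1.59, Col9a2 at 1.01 and Col9a1 at 0.86 times it. The median log2 difference of the cartilage and bone genes was 0.29, and -0.12 without m31 replicate 4. All 5 Schwann cell genes had lower estimates with m31 (median -0.47), 3 with an unadjusted p under 0.05 and 0 past the test. Of all 15960 genes tested, 483 had a lower estimate with such a p. Pericyte and smooth muscle genes scored highest in m31 replicate 2 (0.42), Schwann cell genes in control replicate 1 (0.46), adipocyte genes in m31 replicate 2 (0.44) and endothelial genes in control replicate 3 (0.16), so none of these 4 lists was highest where the 8 genes were. Muscle fibre genes, with 9 of 9 estimates lower and 0 past the test, scored lowest in m31 replicate 4, at -0.32. In whole tissue, more cells of a kind and more RNA per cell cannot be told apart. The part of more tendon in a sample, of repair or of other cells in the values of the 8 genes was not tested, and no label records the cut of each muscle.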

How the data were processed

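RNA of gastrocnemius was sequenced after preparation with a NEBNext Ultra kit, per the labels' protocols. Sample titles give the guide and a replicate number. The authors deposited 1 table whose signal values are gene counts scaled by a size factor for each library. STAR, DESeq2 (both with no version) and the human build GRCh38.p12 appear in the submitters' processing notes, although the identifiers are those of mouse genes. The sources used here give no counting program, strand setting or annotation. Of 11 value columns, 8 match library names in the labels, and the other 3 were not used. The 5 construct entries were kept out of tests and totals.

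Values of all genes were whole multiples of 1 read within 0.01 of a read (100% of values), which gave depth and read counts. The design allowed for counts or normalised values, and the latter test applied: limma 3.58.1 in R 4.3.3 with an intensity trend on log2(value + 1), all 8 libraries, 15960 genes with a mean of at least 10, Benjamini-Hochberg adjustment over all of them and a threshold of 0.05. Fold changes of low genes on this scale depend on the pseudocount. The fit was run on simulated data with known changes. Its outcome is not given here, so a missing call does not show that a gene was unchanged. Alternatives were each library left out, m31 replicate 4 left out with control replicate 3, a replicate block, a minimum mean of 50 or none, pseudocounts of 0.5 and 5, quantile normalisation, recentring on library medians, library weights, and edgeR 4.0.16 and DESeq2 1.42.0 on the recovered reads. No replicates were alike within sampling noise (chi-square per degree of freedom 14.3 to 57.9).

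The 8 genes and the 14 other lists were chosen with earlier results of these data known. Beside the 8 genes, genes were named by rule: in each list the 3 tested genes with the smallest unadjusted p, the 8 genes most correlated with the mean of the 8, and the 2 most correlated with each; only a part is printed. Coordinates and exon lengths are from GENCODE M21 (GRCm38), and promoters from RefSeq (GRCm38.p6).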

Additional observations from a re-analysis of the deposited data

Results flagged for a closer look

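Within each group of 4 libraries, the highest or lowest value was set against the gap to its nearest neighbour, for the 8 genes and the scores of the 15 lists; 46 groups were examined, and chance alone marks about 1 in 20. Tnmd (636 normalised reads) and Col14a1 (1685) stood apart in m31 replicate 4, with 83.1% and 89.8% of the group's range lying between this library and the next. In the same library the scores of interstitial matrix (1.40) and muscle repair (0.67) stood apart. In control replicate 3 the scores of interstitial matrix (0.36) and macrophages (0.61) stood apart upwards, and in control replicate 2 the Schwann cell score (-0.32) downwards. Comp, Thbs4, Col12a1 and Mkx, though highest in m31 replicate 4, did not stand apart by this measure.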

How the results depend on the processing

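None of the 8 genes passed the threshold under any of the 19 alternatives run, and 7 of the 8 kept their direction in all of them. Their log2 differences ranged over 0.71 to 1.19 (Thbs4), 0.74 to 1.29 (Comp), 0.69 to 1.34 (Col12a1), 0.34 to 1.12 (Col14a1), 0.19 to 0.70 (Tnmd), 0.14 to 0.61 (Mkx) and -0.19 to -0.08 (Col22a1), with a smallest adjusted p of 0.146 (Thbs4, m31 replicate 4 and control replicate 3 left out). The Scx log2 difference was 0.02 and ran from -0.062 (without m31 replicate 4) to 0.090 (without m31 replicate 2) when single libraries were left out, with a changed sign also without m31 replicate 3 or control replicate 4. For Scx quantile normalisation gave -0.00985, recentring -0.012, library weights -0.083 and leaving out m31 replicate 4 with control replicate 3 -0.076. The Top2a log2 difference (a cell division gene) was 0.46 and ran from -0.17 (without control replicate 4) to 0.95 (without control replicate 3). The cause of these changes was not tested. Over all genes 1 to 2 were called when single libraries were left out (2 without m31 replicate 1 and 2 without control replicate 4), 3 without m31 replicate 4 and control replicate 3, and 24 by DESeq2, and the cause was not tested. With the replicate number as a block (replicate block), which rests on a shared number only, 1 gene and 0 of the 8 were called, and the block changed no call among the 8. Same-numbered libraries did not deviate together, with correlations of 0.05, -0.05, -0.13 and -0.18. The least covered of the 8, Mkx, had 31 to 134 reads per library, and the SE of the 8 log2 differences ran from 0.08 to 0.45.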
